A study of Homo sapiens with 4 samples.

Results

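The box C/D small nucleolar RNAs (snoRNAs) of DU-145 cells are described here in RNA held back on streptavidin beads. Genes whose symbol starts with SNORD were taken as members when their FPKM, fragments per kilobase of transcript scaled to library size, was at least 1 in at least 2 of 4 libraries and no row had failed. Of 268 SNORD genes in the deposited tables, 121 met this rule, among 10225 genes of all kinds that passed the same filter. Another 23 SNORD genes were above 0 in some library without meeting the rule, and 124 were listed at 0 in every library. The members were thus selected on their FPKM in these same libraries, and those levels are a description that is not offered as a finding.

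DU-145 is an established human prostate cancer line. All cells were transfected with 60 nM of a miR-26a duplex, irradiated with ultraviolet light at 365 nm (2 J/cm2), and their total RNA was put on streptavidin beads for 4 h. The control group (ds-miR-26aCT, 2 libraries) had an untagged duplex. The biotin group (ds-miR-26aBIO, 2 libraries) had a mix of duplexes that bore a 3′ biotin and a thiouridine at nucleotide 7 or 17. Biotin and thiouridine were always given together, so their parts cannot be told apart, and no unselected input RNA was analysed here, so a difference in cell content and a difference in recovery cannot be told apart either. The 2 libraries of a group were biological replicates according to the series design.

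A box C/D snoRNA carries a box C near its 5′ end and a box D near its 3′ end, which fold together and are bound by SNU13, NOP56, NOP58 and the methyltransferase fibrillarin (FBL). The bases upstream of box D pair with ribosomal or spliceosomal RNA and place a 2′-O-methyl group there, while a few members, such as the U3 RNA (SNORD3A), act in the cleavage of the ribosomal RNA precursor. Most human members are cut out of introns of host genes, many of which make ribosomal proteins or spliced RNAs without a known protein (SNHG1, GAS5, ZFAS1).

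Members measured 55 to 237 nt in the deposited tables (median 80 nt), with 105 under 100 nt and 16 of 100 nt or more. A host was found for 117 of them, in 56 host genes, 31 of which held a single member. For 15 of these members the host was taken from the only strand with a spliced gene. SNORD3A, SNORD3C, SNORD13 and SNORD58C had no host. GENCODE 29 (build hg38) held a transcript for 105 members. The motif TGATGA (box C), searched on the transcript strand in its first 20 bases, was found in 72 of 105 (68.6%), against 192 of 288 annotated SNORD transcripts (66.7%) and 1 of 149 transcripts of the other large class, the box H/ACA snoRNAs with SNORA symbols (0.7%). The motif CTGA (box D) in the last 15 bases was found in 99 of 105 members (94.3%), in 91.3% of annotated SNORD and in 3.4% of SNORA transcripts.

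The transcripts below are printed because the results turn on them: SNORD17 (SNX5, chr20:17962710-17962946, minus strand), SNORD10 (EIF4A1, chr17:7576811-7576952, plus strand) and SNORD22 (SNHG1, chr11:62852910-62853035, minus strand) had both biotin libraries below both controls, though SNORD22 was not called, and SNORD83A (RPL3, chr22:39315213-39315307, minus strand), SNORD25 (SNHG1, chr11:62855564-62855632, minus strand) and SNORD30 (SNHG1, chr11:62853663-62853732, minus strand) had both above, SNORD30 because it was listed at 0 in both controls and entered the set through the biotin libraries. Sequences are those of GENCODE 29 on hg38, 5′ to 3′, with TGATGA of box C and CTGA of box D in capitals where these letters were found in the windows above. The GENCODE ends of SNORD10 and SNORD25 differ from the deposited ones by a few bases. The last line is the mature miR-26a of RefSeq with its seed in capitals.
SNORD17: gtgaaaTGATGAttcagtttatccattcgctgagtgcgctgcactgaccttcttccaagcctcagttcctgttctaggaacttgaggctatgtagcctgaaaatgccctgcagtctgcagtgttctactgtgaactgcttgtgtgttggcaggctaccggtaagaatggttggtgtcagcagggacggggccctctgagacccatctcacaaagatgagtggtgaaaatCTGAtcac
SNORD10: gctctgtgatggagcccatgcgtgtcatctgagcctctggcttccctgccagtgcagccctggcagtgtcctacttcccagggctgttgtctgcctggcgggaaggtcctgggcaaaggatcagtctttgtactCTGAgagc
SNORD22: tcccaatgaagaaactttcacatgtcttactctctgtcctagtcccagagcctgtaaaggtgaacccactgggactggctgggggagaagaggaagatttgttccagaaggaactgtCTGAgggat
SNORD83A: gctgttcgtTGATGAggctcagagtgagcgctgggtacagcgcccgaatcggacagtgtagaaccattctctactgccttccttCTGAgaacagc
SNORD25: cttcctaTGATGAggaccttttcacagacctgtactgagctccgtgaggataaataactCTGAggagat
SNORD30: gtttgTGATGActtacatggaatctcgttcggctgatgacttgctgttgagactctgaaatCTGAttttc
hsa-miR-26a-5p: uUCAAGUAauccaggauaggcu

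The complement of miR-26a bases 2 to 8, TACTTGA, was in 0 of 105 members and in 0 of 288 annotated SNORD transcripts, on the transcript strand. The shorter ACTTGA, which pairs with bases 2 to 7, was in 1 member, SNORD17, and in 3 of 288 annotated SNORD transcripts (1.0%). These counts describe the letters only.

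Library depth, estimated from the deposited coverage, was 16030000 to 23640000 mapped reads. All 10 epithelial and line markers examined were at 1 FPKM or more in all 4 libraries, with summed levels of 357 to 501 FPKM in controls and 349 to 403 FPKM in biotin libraries. KLK3 and KLK2, secreted proteases of the prostate, were listed at 0 throughout. Markers of blood, endothelium, fibroblasts and neuroendocrine cells, 11 in all, summed to 0.299 to 0.326 FPKM in controls and 0.271 to 0.482 FPKM in biotin libraries.

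The controls listed 32 and 22 members at 0, and the biotin libraries 20 and 7. Of the 121 members, 68 were at 1 FPKM or more in all 4 libraries, 25 in exactly 3 and 28 in exactly 2. Of the last, 11 passed through the biotin pair alone, 1 (SNORD124) through the control pair alone, and 16 through 1 library of each group. Of the 25 members with a single library at 0, 16 lacked a control and 9 a biotin library. No member had a value between 0 and 1. At the edge of the rule, the second-highest library of SNORD3C was at 1.87 FPKM, of SNORD89 at 2.21 FPKM and of SNORD124 at 4.48 FPKM. Just outside it, SNORD63, SNORD78 and SNORD75 were listed at 0 in 3 libraries and reached 257, 199 and 119 FPKM in the fourth.

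Large FPKM values of these short RNAs rested on few fragments. The deposited lower and upper bounds of FPKM were multiplied by transcript length and divided by a unit set for each library. This unit was the smallest nonzero lower bound of the same SNORD rows, taken as a single fragment. The bounds were whole multiples of it to within 0.01 in 99.44% to 100.0% of SNORD bounds per library. The unit implies 16618463 to 24495162 fragments per library, somewhat above the estimated 16030000 to 23640000 mapped reads. Fragment counts given here rest on this choice of unit. Among 403 member values above 0, the upper bound ran from 7 to 723 fragments with a median of 14, and in 128 the lower bound was 0 fragments. The FPKM itself lay above its own upper bound for 98.1% to 100.0% of SNORD values per library, against 6.3% to 7.0% for transcripts of 2 kb or more. The ratio of FPKM to the interval midpoint was 1.76 to 153 over member values, with a median of 31.3, so levels of members of different lengths are not on a common scale. All intervals are of single libraries and cover counting error only, without the spread between replicates. The libraries held no molecular identifiers.

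**Figure D1:**
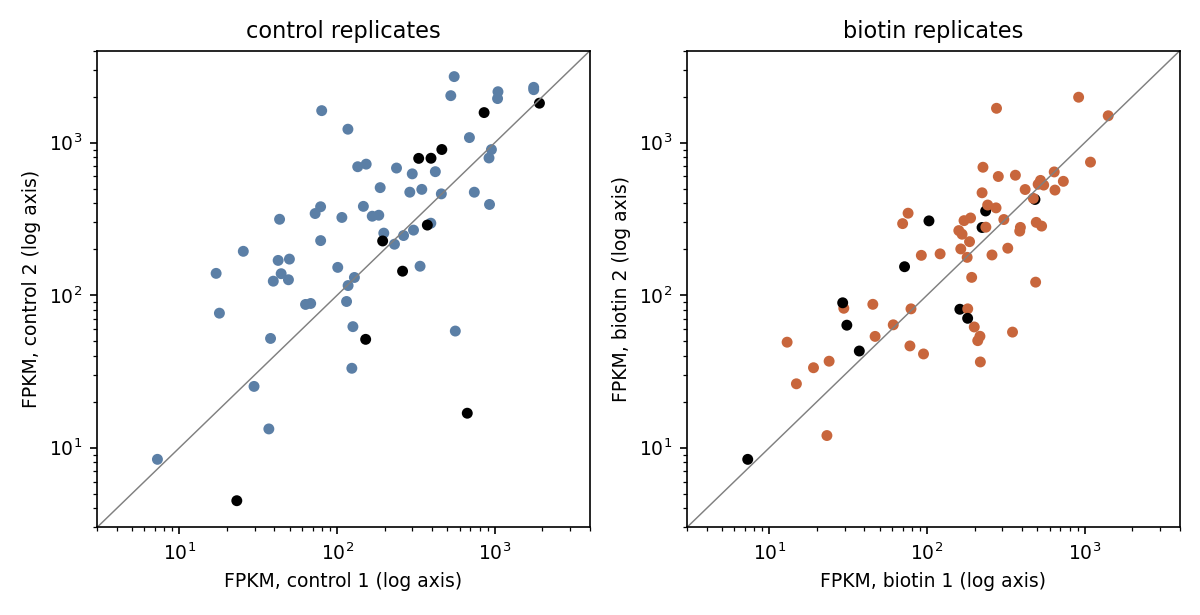
FPKM of the 68 members measured in all 4 libraries, replicate 1 on the x axis and replicate 2 on the y axis (both log axes), controls left and biotin right. Black points are members of 100 nt or more and the line marks equal values. Most points lie off the line. Of the 68, 46 are higher in control 2 than in control 1, and 42 are higher in biotin 2 than in biotin 1.

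Replicates of a group scattered more for the snoRNAs than for all genes at 1 FPKM or more in all 4 libraries, members included. Those genes were not matched to the members in length or in fragments. Across the 68 members in all 4 libraries, log2 values of the 2 controls correlated at r = 0.67 and those of the 2 biotin libraries at r = 0.77, against 0.98 and 0.98 across the 8873 genes at 1 FPKM or more in all 4. These correlations run across genes, which share a library and are not independent replicates. The median absolute log2 difference between replicates was 1.00 (control) and 0.72 (biotin) for the members and 0.18 in both groups for the 8873 genes. In the controls 35 of the 68 members differed by a factor of 2 or more between replicates, and in the biotin libraries 22 did. The median level of the 68 members was 185 and 305 FPKM in controls and 204 and 238 FPKM in biotin libraries.

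By deposited FPKM, which does not put different lengths on a common scale, the members with the highest means were SNORD47, SNORD80, SNORD29, SNORD100, SNORD10, SNORD32A, SNORD139, SNORD36A, SNORD28 and SNORD17. SNORD47, a methylation guide encoded in GAS5, was at 1761 and 2302 FPKM in controls and 914 and 1983 FPKM in biotin libraries. SNORD80, also of GAS5, was at 1046 and 2155 FPKM in controls and 1408 and 1499 FPKM in biotin libraries. For both guides the groups overlapped. SNORD36A of RPL7A was low in control 1 and biotin 1 and high in the others, at 79.7 and 1620 FPKM in controls and 276 and 1678 FPKM in biotin libraries. SNORD32A of RPL13A reached 2707 FPKM in control 2 alone and lay at 300.0 to 552 FPKM in the other 3 libraries. Neighbours in this order differed by less than their spread over the 4 libraries. The order was another one by the mean of the interval midpoints, led by SNORD17, SNORD3A, SNORD47 and SNORD10, where SNORD139 (55 nt) came at rank 31.

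The groups were compared by limma on log2(FPKM + 1), fitted across all 10225 genes, and a gene was called at a Benjamini-Hochberg adjusted p under 0.05. Of the 121 members 15 were called higher and 6 lower in the biotin libraries, where 10.9% of all genes were called higher and 6.42% lower. Of the 15 called higher, 11 were listed at 0 in both controls and had entered the set through the biotin pair, so they had to differ. Among the 6 called lower, SNORD124 was listed at 0 in both biotin libraries. It had entered through the control pair, so it had to differ too. Among the 68 members in all 4 libraries 4 were called higher and 5 lower. The shares of all 8873 such genes were 10.4% and 6.85%. The median log2 difference of the 68 was -0.32, against -0.08 over the 8873 genes, and it took the opposite sign (0.18) after quantile normalization. This set leaves out members listed at 0 in any library. Leaving out a library changed these figures: the median of the 68 was -0.737 without control 1 and -0.023 without control 2. Without biotin 1 the median was -0.478 and without biotin 2 -0.359. Fewer members and fewer hosts were called in each of these fits, and no share over all genes is given for them. Split by mean level, which keeps members listed at 0, the 75 members with a mean of 100 FPKM or more had a median of -0.16 and the 46 below it 0.03.

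Groups without overlap were counted too. Both biotin libraries lay above both controls in 27 members and below them in 25, where 29.0% and 37.6% of all genes did so. The 27 include the 11 members listed at 0 in both controls, which had to lie above, and the 25 include SNORD124, which had to lie below. Among the 68 members in all 4 libraries the balance was the other way, with 8 above and 19 below, against 28.1% and 39.4% of the 8873 genes. By size, each biotin library was set against each control on the FPKM + 1 scale. By a factor of 2 or more in every pair, 19 members were higher and 10 lower, against 5.29% and 1.7% of all genes. The 19 include the same 11 members, and the 10 include SNORD124, listed at 0 in both biotin libraries. Passing the filter was enough for these to meet the rule. In the 68 members in all 4 libraries 3 were higher and 7 lower by this rule, where 437 and 145 of the 8873 genes were. The counts with a library left out, given next, have no share over all genes beside them. With a library left out the rule compares fewer pairs, and the lower members numbered 26 without control 1, 19 without control 2, 18 without biotin 1 and 19 without biotin 2, and the higher ones 37 without control 2.

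SNORD17, the longest member and a guide for the large-subunit ribosomal RNA, was at 854 and 1573 FPKM in controls and 72.0 and 154 FPKM in biotin libraries. The lower control was over 5 times the higher biotin library. It fell by 3.45 ± 0.50 (SE) on the log2 scale (limma, Benjamini-Hochberg adjusted p = 0.0192, lower in 2 of 2 biotin libraries). Its intervals were 590 to 723 and 427 to 540 fragments in controls and 35 to 75 and 53 to 97 in biotin libraries, so the control with more fragments had the lower FPKM. On the scale of the interval midpoints it fell by 3.30 on the log2 scale (limma, adjusted p = 0.000992). The host SNX5, a sorting nexin, was at 10.5 and 9.64 FPKM in controls and 9.05 and 9.48 FPKM in biotin libraries, a log2 difference of -0.11 ± 0.15 (limma, adjusted p = 0.631).

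SNORD10, in an intron of the translation initiation helicase EIF4A1, was at 1915 and 1813 FPKM in controls and 235 and 356 FPKM in biotin libraries. Both biotin libraries lay below both controls. It fell by 2.68 ± 0.31 (SE) on the log2 scale (limma, adjusted p = 0.0116), and its intervals were 90 to 148 and 101 to 154 fragments against 8 to 29 and 16 to 47. The host EIF4A1 had a log2 difference of -0.59 ± 0.19 and was not called (limma, adjusted p = 0.0963).

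SNORD29, 1 of 8 members of SNHG1, was at 1762 and 2223 FPKM in controls and 506 and 533 FPKM in biotin libraries, and fell by 1.93 ± 0.28 on the log2 scale (limma, adjusted p = 0.0188). SNORD4B of RPL23A was at 344 and 494 FPKM in controls and 79.1 and 81.3 FPKM in biotin libraries, and fell by 2.35 ± 0.27 (limma, adjusted p = 0.0115). Both had groups without overlap, but the SNORD4B values rested on intervals of 1 to 12 and 2 to 16 fragments in controls and 0 to 7 in both biotin libraries. SNORD116-14, from the imprinted SNHG14 locus, was at 183 and 334 FPKM in controls and 45.3 and 87.0 FPKM in biotin libraries, and fell by 1.96 ± 0.45 (limma, adjusted p = 0.0476). It differs from SNORD116-20, SNORD116-21 and SNORD116-22 at 2 of 92 positions each, so reads could have gone to any of these copies.

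SNORD83A, in an intron of RPL3, was at 29.7 and 25.2 FPKM in controls and 236 and 279 FPKM in biotin libraries. Both biotin libraries lay above both controls in FPKM. SNORD83A rose by 3.18 ± 0.22 (SE) on the log2 scale (limma, adjusted p = 0.00407). Its intervals were 0 to 7 fragments in each control and 4 to 21 in each biotin library, so they overlapped between groups. On the midpoint scale the log2 difference was 1.22 (limma, adjusted p = 0.00743). Its neighbour SNORD83B, from the same host, was at 25.4 and 194 FPKM in controls and 75.8 and 344 FPKM in biotin libraries, with overlapping groups.

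SNORD36C of RPL7A was at 63.0 and 86.9 FPKM in controls and 186 and 224 FPKM in biotin libraries (log2 difference 1.45 ± 0.27, limma, adjusted p = 0.0311). SNORD53 of WDR43 was at 67.9 and 88.2 FPKM in controls and 167 and 251 FPKM in biotin libraries (1.39 ± 0.30, limma, adjusted p = 0.0429). SNORD25 of SNHG1, a guide for the small-subunit ribosomal RNA, was at 101 and 152 FPKM in controls and 307 and 313 FPKM in biotin libraries (1.32 ± 0.29, limma, adjusted p = 0.0431). All 3 had both biotin libraries above both controls. On the midpoint scale none of the 3 was called (limma, adjusted p = 0.138, 0.144 and 0.143), and their intervals overlapped between groups. Midpoints of SNORD36C were 3.14 and 2.83 FPKM in controls and 3.69 and 4.57 FPKM in biotin libraries. The pseudocount of 1 narrows differences at such low values.

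None of the calls among the 68 members held when a single library of either group was left out, except SNORD83A without biotin replicate 2 (adjusted p = 0.045). The adjusted p (limma) without a library reached 0.112 for SNORD17, 0.106 for SNORD10, 0.0951 for SNORD4B, 0.115 for SNORD29, 0.186 for SNORD116-14 and 0.0717 for SNORD83A. It reached 0.147 for SNORD36C, 0.163 for SNORD53 and 0.170 for SNORD25. A group then holds 1 library, which is assumed to vary like the others.

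**Figure D2:**
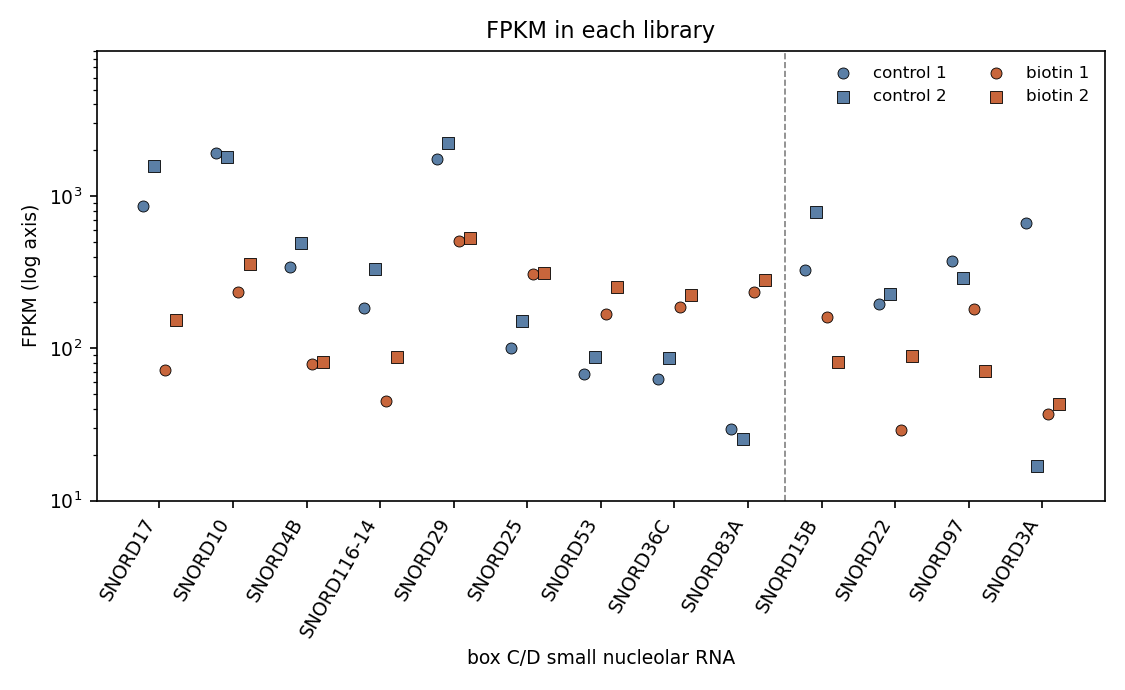
FPKM (log axis) of 13 snoRNAs in each library; blue marks the controls, orange the biotin libraries, circles replicate 1 and squares replicate 2. Left of the dashed line stand the 9 members in all 4 libraries that were called, from SNORD17 to SNORD83A, with no overlap between groups; right of it stand 4 members that were not called, of which SNORD3A has overlapping groups.

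The 11 members listed at 0 in both controls were low in fragments in the biotin libraries as well. SNORD30 of SNHG1, a guide for the large-subunit ribosomal RNA, was at 257 and 241 FPKM in the biotin libraries (2 to 16 and 1 to 14 fragments). SNORD66 of EIF4G1, a guide for the small-subunit ribosomal RNA, was at 122 and 113 FPKM there (0 to 9 fragments in both). SNORD11 of NOP58, whose protein is itself part of the snoRNA particle, was at 111 and 380 FPKM. The other 8 were SNORD42A, SNORD127, SNORD43, SNORD69, SNORD93, SNORD19B, SNORD1B and SNORD89. A listing at 0 allows up to 3 fragments, and no fold is given for these members. With the value at 0 given that limit, 0 of 121 members had both biotin intervals above both control intervals, against 15.7% of 12291 transcript rows at all lengths. SNORD124 of MED24 was the only member listed at 0 in both biotin libraries, with 9.55 and 4.48 FPKM in controls.

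A lower bound of at least 10 fragments in both libraries of a group was reached by 10 members, a limit chosen after the data were seen. They were SNORD10, SNORD13, SNORD15B, SNORD17, SNORD22, SNORD28, SNORD29, SNORD3A, SNORD47 and SNORD97. All 10 reached it in the controls and 4 of them also in the biotin libraries, so the choice favours members that are high in controls, and no direction is read from the counts over these 10. Both biotin libraries lay below both controls in 8 of the 10 and above in 0 (37.6% and 29.0% of all genes), and SNORD3A and SNORD47 overlapped. Limma called 3 of the 10 lower on FPKM (6.42% of all genes) and 8 on the midpoints (11.3% of all genes). Intervals of both biotin libraries lay below those of both controls in 4 of 121 members (SNORD10, SNORD15B, SNORD17 and SNORD97), against 13.9% of 12291 transcript rows.

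**Figure D3:**
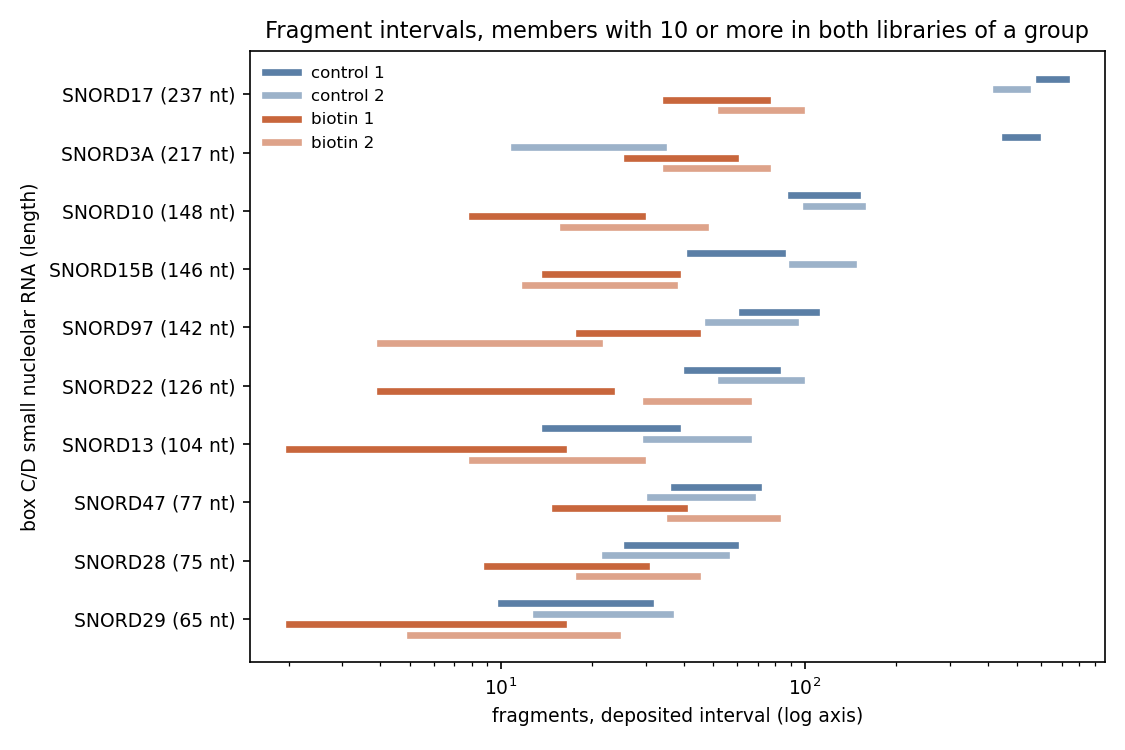
Deposited intervals of fragments (log axis) for the 10 members with a lower bound of at least 10 fragments in both libraries of a group, ordered by length; dark and light blue are controls 1 and 2, dark and light orange biotin 1 and 2. For SNORD17, SNORD10, SNORD15B and SNORD97 the orange bars do not reach the blue ones; for SNORD3A control 1 stands apart from the other 3 libraries.

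SNORD15B and SNORD97 are named because of these intervals, after their values were seen. SNORD15B, a large-subunit guide of RPS3, was at 329 and 788 FPKM in controls and 161 and 80.8 FPKM in biotin libraries (log2 difference -2.15 ± 0.56, limma, adjusted p = 0.0608). SNORD97 of EIF4G2 was at 373 and 288 FPKM in controls and 181 and 70.5 FPKM in biotin libraries (-1.53 ± 0.50, limma, adjusted p = 0.095). Both missed the threshold on FPKM and passed it on the midpoint scale (limma, adjusted p = 0.00906 and 0.0311).

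Of 9 members that act in ribosomal RNA processing limma called 0 on FPKM (10.9% of all genes higher and 6.42% lower). At an unadjusted p under 0.05, 1 was higher and 2 lower (18.5% and 18.9% of all genes). On the midpoint scale limma called 3 lower and 0 higher (11.3% and 13.5% of all genes). SNORD3A, the U3 RNA, was at 668 and 16.8 FPKM in controls and 37.2 and 43.0 FPKM in biotin libraries. Control 1 alone was high, with 457 to 582 fragments against 11 to 34 in control 2, and the biotin libraries lay between the 2 controls (log2 difference -1.41 ± 1.68, limma, adjusted p = 0.577). SNORD3C, at 0 to 2.96 FPKM, differs from SNORD3A at 1 of 217 positions, so reads of these copies cannot be told apart with certainty. SNORD118, the U8 RNA, was listed at 0 in every library.

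SNORD22 was at 194 and 227 FPKM in controls and 29.2 and 89.1 FPKM in biotin libraries, with no overlap (-2.02 ± 0.55, limma, adjusted p = 0.0662). SNORD13, the U13 RNA, was at 393 and 789 FPKM in controls and 103 and 307 FPKM in biotin libraries, also without overlap (-1.64 ± 0.64, limma, adjusted p = 0.134). Neither was called on FPKM, and both were on the midpoint scale (limma, adjusted p = 0.0382 and 0.0167).

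The U14 family (SNORD14A to SNORD14E) lay on both sides. SNORD14A and SNORD14B, in introns of RPS13, were at 43.1 and 314 FPKM and at 49.1 and 126 FPKM in controls, and at 524 and 565 FPKM and at 226 and 689 FPKM in biotin libraries. Both had the biotin libraries above the controls, with log2 differences of 2.21 ± 0.93 and 2.31 ± 0.70 (limma, adjusted p = 0.158 and 0.0828). SNORD14D, in an intron of the chaperone gene HSPA8, was at 78.5 and 228 FPKM in controls and 13.0 and 49.2 FPKM in biotin libraries (-2.35 ± 0.79, limma, adjusted p = 0.101). SNORD14C and SNORD14E, also of HSPA8, had overlapping groups. The difference between the RPS13 and HSPA8 copies was not tested.

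The imprinted families were sparse. Of 25 listed SNORD116 genes, 12 were members, 4 of them in all 4 libraries, and SNORD116-14 was the only one called. None of 43 SNORD115, 9 SNORD113 and 31 SNORD114 genes was a member. SNORD107, SNORD108 and SNORD64 were listed at 0 in every library.

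Members were also split by length, at 100 nt, a limit chosen after the data were seen. The 11 members of 100 nt or more in all 4 libraries had a median log2 difference of -1.53 (range -3.45 to 0.36). Both biotin libraries lay below both controls in 6 of these 11 and above in 0 (39.4% and 28.1% of the 8873 genes in all 4 libraries). Limma called 2 lower and 0 higher (6.85% and 10.4%), with 5 lower and 0 higher at an unadjusted p under 0.05 (20.0% and 17.6%) and 6 lower and 0 higher on the midpoint scale (12.3% and 13.1%). The median was -0.09 in the 26 members of 80 to 99 nt, with 6 below and 4 above, and -0.16 in the 31 members under 80 nt, with 7 below and 4 above, so no trend with length is seen under 100 nt. With members at 0 in some library included, the median was -1.47 for 16 members of 100 nt or more, with 7 below and 1 above, and 0.11 for 105 shorter ones, with 18 below and 26 above. The box H/ACA snoRNAs had a median of -1.05 in the 56 measured in all 4 libraries, of which limma called 21 lower and 1 higher. Length and depth moved together here, since 7 of the 10 members with the most fragments were of 100 nt or more, and their parts were not tested.

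**Figure D4:**
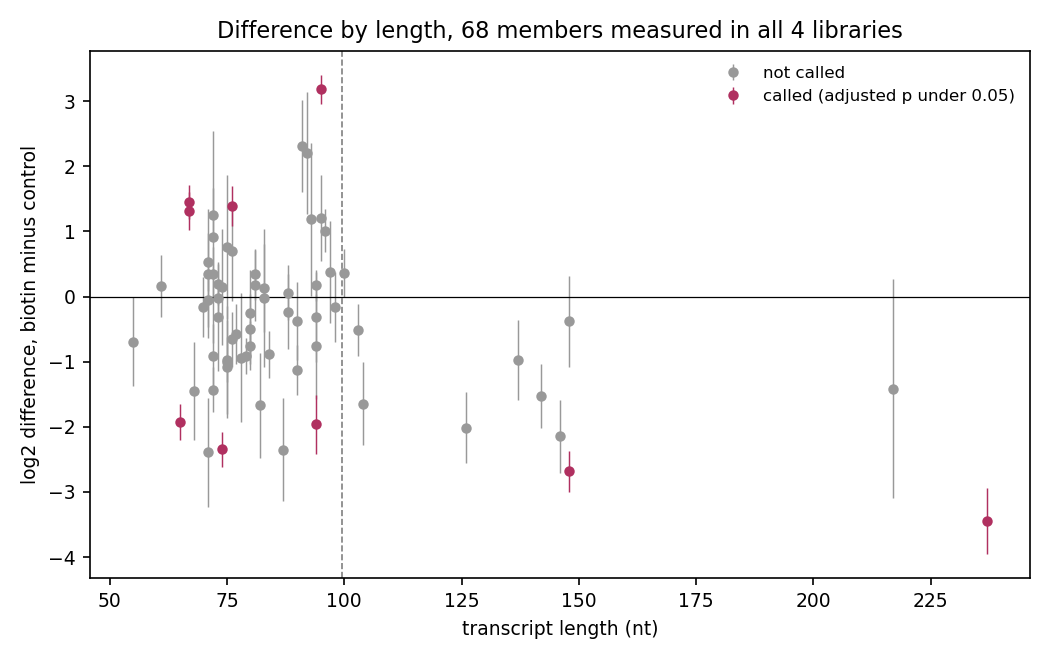
Log2 difference (biotin minus control, y axis; bars are limma standard errors) against transcript length in nt (x axis) for the 68 members in all 4 libraries, with called members in red. Right of the dashed line at 100 nt 2 members are called lower and none higher, with SNORD17 at the bottom right.

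On the midpoint scale, an alternative added after the data were seen, limma called 12 of 121 members higher and 17 lower, against 13.5% and 11.3% of all genes. All 6 members called lower on FPKM were among the 17. Of the 12 higher calls, 11 were members listed at 0 in both controls and SNORD83A was the other one. Among the 68 members in all 4 libraries it called 1 higher and 14 lower, against 13.1% and 12.3% of the 8873 genes.

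The choice of members did not use the values of host transcripts. Where several genes spanned a member, though, the host was the gene with the highest mean FPKM over these libraries. Of 51 hosts tested limma called 2 higher and 9 lower (10.9% and 6.42% of all genes), with a median log2 difference of -0.41 against -0.07 over all genes. Ribosomal protein genes made up 15 of the 51 hosts, and 6 of these 15 were called lower and 0 higher, RPS12, RPS20, RPL5, RPL17 and RPL37 among them, with 10 lower and 0 higher at an unadjusted p under 0.05 (18.9% and 18.5% of all genes). Of the other 36 hosts 3 were called lower (COX7C, HSPA8 and SNHG6) and 2 higher (CHD8 and CCNB1IP1). RPS12 was at 562 and 575 FPKM in controls and 259.7 and 274 FPKM in biotin libraries, and fell by 1.09 ± 0.24 on the log2 scale (limma, adjusted p = 0.0426). No host call held when any 1 of the 4 libraries was left out. Of the members in all 4 libraries, 22 lay inside tested ribosomal protein hosts, with 2 called higher and 1 lower, and 26 inside noncoding hosts (SNHG genes, GAS5 and ZFAS1), with 1 called higher and 2 lower, against 10.4% and 6.85% of the 8873 genes.

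SNHG1, a spliced noncoding RNA, was at 76.5 and 98.0 FPKM in controls and 68.9 and 73.7 FPKM in biotin libraries (-0.28 ± 0.23, limma, adjusted p = 0.422). Of its 8 members SNORD25 and SNORD30 were called higher on FPKM and SNORD29 lower, but SNORD30 was at 0 in both controls and had to be higher. SNORD22, SNORD27, SNORD28 and SNORD31 had both biotin libraries below both controls without a call on FPKM, and SNORD26 overlapped. On the midpoint scale SNORD25 was not called (limma, adjusted p = 0.143), and SNORD22, SNORD27, SNORD28 and SNORD29 were called lower (limma, adjusted p = 0.0382, 0.00895, 0.0174 and 0.00652). SNORD27 came nearest to the threshold, with 689 and 1079 FPKM in controls and 274 and 373 FPKM in biotin libraries (-1.43 ± 0.35, limma, adjusted p = 0.0531). The difference between SNORD25 and SNORD29 within the host was not tested.

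GAS5, another noncoding host, had 7 members and limma called none of them, on FPKM or on the midpoints (0 at an unadjusted p under 0.05), nor the host (-0.32 ± 0.22, adjusted p = 0.347). Log2 differences of its 6 members in all 4 libraries ran from -0.91 (SNORD74) to 0.34 (SNORD79). SNORD77 was listed at 0 in biotin 2 alone. ZFAS1 was at 116 and 129 FPKM in controls and 75.1 and 64.1 FPKM in biotin libraries (-0.81 ± 0.22, limma, adjusted p = 0.065), and its members SNORD12, SNORD12B and SNORD12C had log2 differences of -1.13, -0.51 and -0.91 without a call.

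**Figure D5:**
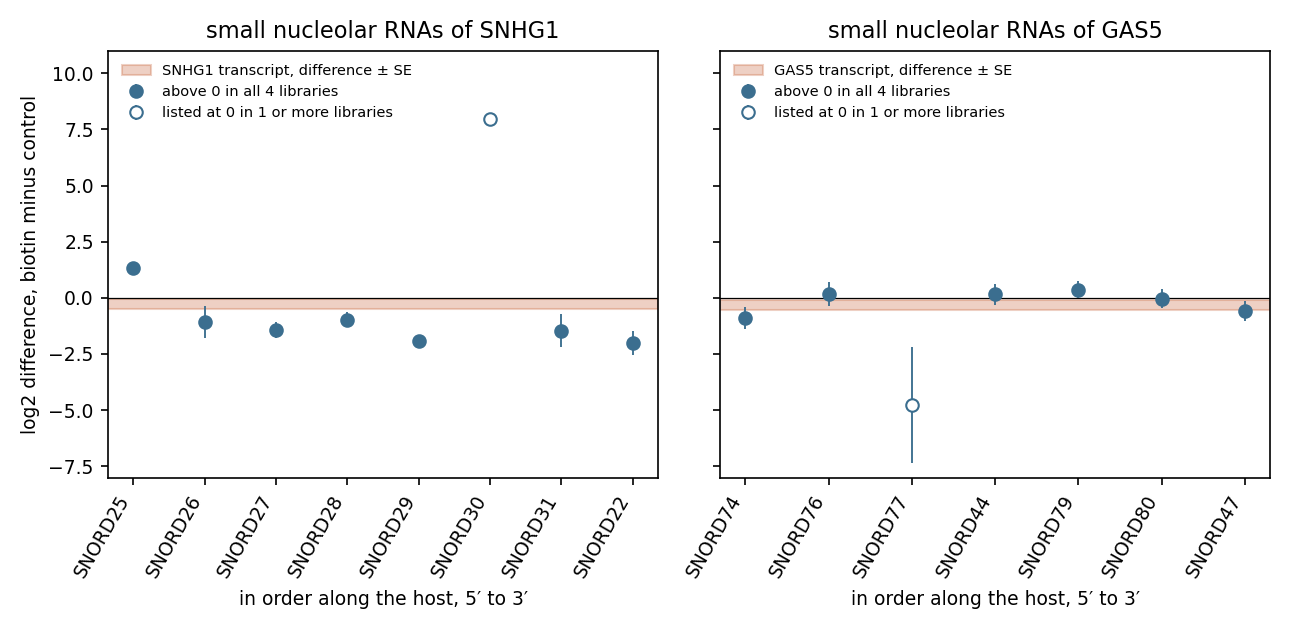
Log2 difference (biotin minus control, y axis; bars are limma standard errors) of each snoRNA of SNHG1 (left) and GAS5 (right), in 5′ to 3′ order along the host; open circles were listed at 0 in at least 1 library, so their height depends on the pseudocount. The orange band is the host's own difference with its standard error; in SNHG1 points lie on both sides of it.

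Protein genes of the snoRNA particle, its assembly and its processing were taken from a list of 32, of which 28 were tested, and limma called 1 lower and 0 higher, against 6.42% and 10.9% of all genes, so the lower share is no larger than that of all genes. At an unadjusted p under 0.05, 8 were lower and 4 higher (18.9% and 18.5% of all genes), and on the midpoint scale 4 were called lower and 1 higher (11.3% and 13.5%). The called gene was the chaperone HSP90AA1, at 33.5 and 32.4 FPKM in controls and 16.5 and 13.2 FPKM in biotin libraries (-1.11 ± 0.19, limma, adjusted p = 0.0266). The median over the list was -0.21. Of the core proteins FBL (-0.32 ± 0.19) and NOP58 (-0.52 ± 0.13) had negative and NOP56 (0.50 ± 0.16) and SNU13 (0.83 ± 0.28) positive log2 differences, none of them called (limma, adjusted p = 0.278, 0.0539, 0.0902 and 0.102).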

How the data were processed

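Streptavidin-recovered RNA of DU-145 cells was measured in 2 control and 2 biotin libraries (TruSeq Stranded Total RNA, single reads of 50 bases, per the labels' protocols). The submitters' processing notes name FastQC 0.10.1, cutadapt, TopHat2 2.0.9, Cufflinks 2.1.1, Cuffdiff and build hg38. Their settings, the annotation and the strand setting were not given in the sources used here, so values of near-identical, antisense or overlapping genes are uncertain. The authors deposited 53209 transcript rows per library with FPKM and its bounds, coverage (signal, used only for depth) and length.

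Accessions were given symbols from RefSeq and GENCODE 29 tables (98.7% of 46699), and FPKM was summed per gene. Genes with a failed row (22) were left out, and short RNAs were kept. Limma 3.58.1 in R 4.3.3 (variance trend, two-sided, log2(FPKM + 1), Benjamini-Hochberg over all genes, 2 residual degrees of freedom) gave all calls. The pseudocount of 1 understates changes of low genes, and member values are lower on the midpoint scale than on FPKM. The test was checked on simulated data with normal errors and the spread of genes of similar level. These data held no fragment counts, so the check does not cover members with few fragments. An exact permutation test of 2 against 2 cannot go below p = 0.333 and was not used. Hosts are spliced GENCODE genes that span the snoRNA. Where several did, the gene with the highest mean FPKM over these libraries was taken.

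Named members are the called ones in all 4 libraries, up to 8 of those at 0 in a whole group, the 10 with the highest means, processing and imprinted classes, and those at the edge of the rule. Hosts of these and of 3 or more members, the 4 core proteins and called list genes are named too. Members and lists were chosen with earlier results of these data known. Alternatives covered the pseudocount, filter, scaling, trend, length, transcript rows, replicate block, left-out libraries and, added after the data were seen, interval midpoints. Some items are not reported here.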

Additional observations from a re-analysis of the deposited data

How the results depend on the processing

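Counts below are members called higher and lower unless stated otherwise (15 and 6 in all 121, 4 and 5 in the 68 in all 4 libraries, 2 and 9 in hosts, 0 and 1 in the protein list). With 1 library left out, members called higher ran from 2 to 12 and lower from 0 to 5, those in all 4 libraries from 0 to 1 and 0 to 0, hosts and proteins were at 0 throughout, the size rule gave 23 to 37 up and 18 to 26 down, and the median of the 68 ran from -0.737 to -0.023. Leaving out control 1 left 2 higher and 0 lower calls in all 121 members. Without a filter on low values, and likewise with single transcript rows, 2 members were called lower. In the 68, these 2 settings called 1 and 1 higher and 1 and 2 lower, and in hosts 0 higher and 1 lower; in the protein list neither called any lower (0). Among members of at least 80 nt, 6 were called higher, with 1 higher and 3 lower in those in all 4 libraries and 10 up and 6 down by size, because fewer members are counted. A pseudocount of 0.1 called 1 host higher. Quantile normalization gave 5 members down by size, 5 proteins lower and a median of 0.178 in the 68, the opposite sign. Over all genes this setting called 1056 higher and 868 lower, against 1111 and 656 in the main fit. Upper-quartile scaling called 0 hosts higher and 14 lower and 5 proteins lower; over all genes it called 1053 higher and 1048 lower, against 1111 and 656. A mean FPKM of at least 5 called 1 protein higher and 3 lower, no variance trend 2 lower, and other short RNA genes left out 4 lower. The interval midpoints called 17 members lower, 1 higher and 14 lower in the 68, 4 hosts higher and 18 lower, and 1 protein higher and 4 lower, with 11 members up by size. The cause of these changes was not tested. For the left-out libraries, filters, pseudocounts, variance trend, transcript rows and left-out short RNAs no share over all genes is given. Their counts are therefore not set against a change in all calls.

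Deviations of same-numbered libraries were hardly correlated across genes (0.04 over all genes and 0.03 over members). This cannot tell whether same-numbered libraries were prepared together. With the replicate block 2 members of the 68 were called higher, and 0 hosts and 0 proteins in either direction. Depth limits most members, whose median interval was 1 to 14 fragments in every library.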
